A study of Mus musculus with 10 samples.

Results

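Semaphorins, plexins, neuropilins, ephrins and Eph receptors were followed in the mRNA of mouse cortical neuron cultures that had been given Gata1. The genes were chosen by symbol alone, as every row of the mRNA tables whose name places it in these families. The rule uses no measured value, although the families were picked with earlier results of these data known. The rule found 56 symbols among 40904. They were 20 semaphorin, 9 plexin, 2 neuropilin, 14 Eph receptor and 8 ephrin genes, and 3 antisense genes named after Plxna4. Each had 1 row in the tables. Cortical neurons of ICR mouse embryos were taken at embryonic day 14, infected with an adeno-associated virus and harvested after 11 days in vitro. One culture group received AAV-Control and the other AAV-Gata1, a virus carrying the zinc finger transcription factor of red cell and platelet development. Both groups share strain, age, culture time and infection. The sources used here name neither the promoter in the virus nor the content of the control virus. Each group had 1 mRNA library, so no difference below has a replicate check, none was tested, and the spread between cultures is unknown.

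Semaphorins and ephrins are cues that steer growing axons and later shape dendrites, spines and synapses. Secreted semaphorins of class 3 bind neuropilins, which pass the signal on through plexins, whereas most membrane-bound semaphorins bind plexins directly. Plexins act inside the cell as GTPase-activating proteins for small GTPases and bring about collapse of the growth cone. Ephrins sit on the cell surface, the A class by a lipid anchor and the B class by a transmembrane segment, and activate Eph receptor tyrosine kinases on the neighbouring cell, with a reverse signal into the cell that carries the ephrin.

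Values are FPKM (fragment counts scaled by transcript length and by mapped fragments), so that levels of different genes can be set side by side. All rows together came to 476398 FPKM for the control library and 476848 FPKM for the Gata1 library, and the depth in fragments is unknown. The delivered gene read 0 FPKM with the control virus and 2.07 FPKM with the Gata1 virus. Neuronal markers were plentiful in both libraries, among them Map2 (239.7 FPKM in the control). The cultures also held RNA of other cells. The astrocyte gene Gfap read 887 FPKM, the microglia gene Tyrobp 132 FPKM and the oligodendrocyte lineage gene Olig1 87.9 FPKM in the control. Endothelial markers were scarce, with 7 of 10 under 1 FPKM and Ly6c1 at 0 in both libraries. In such bulk RNA, fewer cells of a type and less RNA per cell cannot be told apart.

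The 53 protein-coding members kept nearly the same order of levels in both libraries. Of these, 40 moved by at most 1 place in that order, and the largest move was 5 places. Plxnb2 stood first in both libraries, followed by Sema6d, Plxnb1, Epha5, Efnb3 and Plxna1. In the control, 24 members reached 10 FPKM and 11 reached 20 FPKM. The summed level of the 53 genes was 740.5 FPKM with the control virus and 724.9 FPKM with Gata1, 2.11% lower.

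The difference of a gene was log2((Gata1 + 1)/(control + 1)), a scale that understates differences at low levels, and genes entered from a mean of 1 FPKM over both libraries upward. Of the 56 members, 46 passed that minimum. Epha8 (mean 1.23 FPKM) was the lowest of those compared and Epha10 (mean 0.943 FPKM) the highest of those left out. No member was 2-fold apart in either direction, where 0.233% of all 13740 genes compared were 2-fold higher and 0.284% 2-fold lower in the Gata1 library. Over the 12194 named genes alone each share was 0.041%. None was 1.2-fold apart either, against a background of 3.29% higher and 3.98% lower. With a pseudocount of 0.1 or of 0.01, 2 members were 1.2-fold higher and 1 was 1.2-fold lower. Of all genes, 4.94% and 5.11% were then higher, and 5.90% and 6.22% lower. At 1.1-fold, a limit chosen after these values were seen, 6 of 46 members (13.0%) were higher and 3 (6.52%) lower, beside 10.7% and 13.7% of all genes. With a pseudocount of 0.01, 6 members were higher and 6 lower, beside 13.2% and 16.8% of all genes. With no filter on low values, which lets in members under the minimum, the counts were again 6 and 6, beside 11.5% and 14.7%. The 6 higher were Efna1, Sema3e, Ephb6, Sema3b, Sema3c and Epha7, and the 3 lower, with a pseudocount of 1, were Epha8, Plxna3 and Ephb2.

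Small differences leaned downward. Of the 46 members, 33 (71.7%) were lower by any amount in the Gata1 library, against 54.7% of all genes compared, and 13 were higher, against 45.3%. Their median log2 ratio was −0.040, or 2.75% lower, beside −0.013 over all genes. After centring on that overall median, 28 of 46 (60.9%) were lower and 18 higher, where the centring places 50% of all genes lower. The count has no replicate check, and members share 2 libraries, so they are not independent observations. Beside this, 13 of 14 pan-neuronal markers were lower, at a median of −0.079. Their summed level was 1418 FPKM with the control virus and 1372 FPKM with Gata1, none of them at 0. Other neuronal lists leaned less. Excitatory neuron markers were lower in 7 of 10, at a median of −0.045. Inhibitory neuron markers were lower in 5 of the 10 compared and higher in 5, at a median of −0.050. The part of neuronal RNA content in the lower values was not tested.

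**Figure D1:**
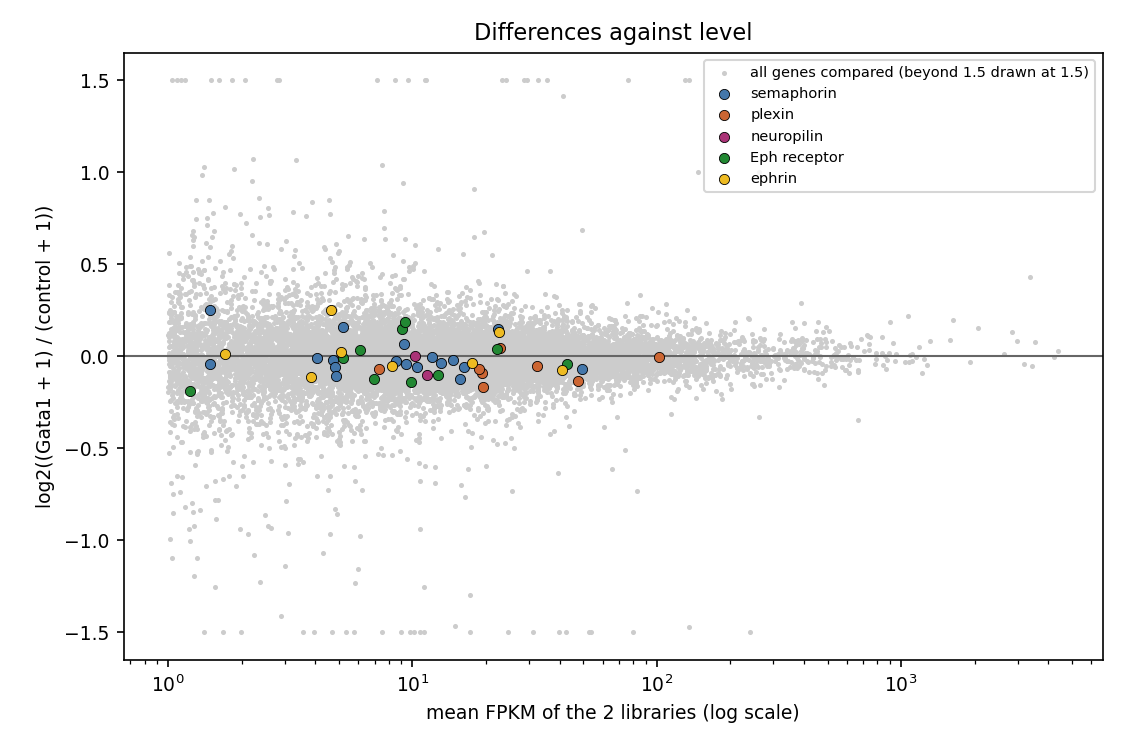
The log2 ratio of Gata1 to control (FPKM plus 1) is plotted against mean FPKM on a log axis, with all 13740 genes compared in grey and the 46 members coloured by family, 1 point per gene. The members lie inside the cloud of other genes at every level, from −0.19 (Epha8) to 0.25 (Efna1).

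The spread among the members was set against genes of like level. Among genes with a mean from 1 to 2 FPKM the central 90% of log2 ratios ran from −0.40 to 0.40, and among those from 20 to 50 FPKM from −0.17 to 0.15. Of the 46 members, 1 lay above the 95th percentile of its level class and 0 below the 5th, together 2.17% against 10% of genes by construction. The exception was Sema3c, whose log2 ratio of 0.149 barely passed the limit of 0.1486. With percentiles taken over named genes only, chosen later with the values known, the count was again 1, and it was again Sema3c.

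Semaphorin ligands differed by class. The 7 secreted class 3 genes summed to 33.7 FPKM in the control and 37.2 FPKM with Gata1, 10.4% higher, while the summed levels of class 4 (2.62% lower), class 5 (5.25% lower), class 6 (3.94% lower) and class 7 (3.13% lower) were below the control. Of the 18 semaphorins compared, 14 (77.8%) were lower and 4 higher, at a median of −0.031. Of all genes compared, 54.7% were lower, at a median of −0.013. None of these class differences was tested.

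Within class 3, Sema3c stood at 21.3 FPKM with the control virus and 23.7 FPKM with Gata1, and supplied 63.2% of the class total in the control. Sema3b, also a neuropilin ligand, stood at 4.85 and 5.54 FPKM. Sema3e, which can bind plexin D1 without a neuropilin, stood at 1.27 and 1.69 FPKM. These 3 were higher in the Gata1 library, with log2 ratios of 0.15, 0.16 and 0.25. Sema3e had the highest ratio of FPKM among the members compared, 1.34. With the pseudocount of 1 its ratio was 1.19, under 1.2-fold. On that same scale, 10.6% of genes with a mean from 1 to 2 FPKM were at least 1.2-fold higher. Sema3a, a repellent of cortical axons acting through neuropilin-1, stood at 1.52 and 1.45 FPKM. Sema3f, the classical ligand of neuropilin-2, stood at 4.08 and 4.03 FPKM, and its log2 ratio of −0.012 turned to 0.0011 with centring. Sema3d (0.630 and 0.721 FPKM) and Sema3g (0.0492 and 0.0281 FPKM) were under the minimum. The higher class 3 sum therefore rested on Sema3c, Sema3b and Sema3e, with Sema3d adding little.

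The transmembrane class 4 genes were lower in 5 of 6 cases, where 54.7% of all genes compared were lower. Sema4g was the furthest apart, at 16.3 FPKM with the control virus and 14.9 FPKM with Gata1. Sema4f stood at 4.95 and 4.70 FPKM, Sema4d, a ligand of plexin B1, at 8.63 and 8.47 FPKM, and Sema4a at 4.77 and 4.69 FPKM. Sema4b read 12.03 and 12.02 FPKM, a difference of 0.113%. Sema4c, a ligand of plexin B2, was the 1 higher member, at 8.98 and 9.44 FPKM.

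Classes 5, 6 and 7 were lower in all 7 of their genes, with log2 ratios from −0.11 to −0.019, where 54.7% of all genes compared were lower. The class 5 genes, whose products carry thrombospondin repeats, stood at 5.10 and 4.65 FPKM (Sema5a) and 16.5 and 15.9 FPKM (Sema5b). Sema6d, a ligand of plexin A1, had the highest semaphorin level, at 50.7 and 48.3 FPKM, and made up 24.2% of all semaphorin FPKM in the control. Sema6a, which binds plexins A2 and A4, stood at 13.2 and 12.9 FPKM. Sema6b stood at 10.6 and 10.2 FPKM and Sema6c at 14.7 and 14.5 FPKM. Sema7a, the lipid-anchored semaphorin that binds integrins and plexin C1, stood at 9.54 and 9.24 FPKM.

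**Figure D2:**
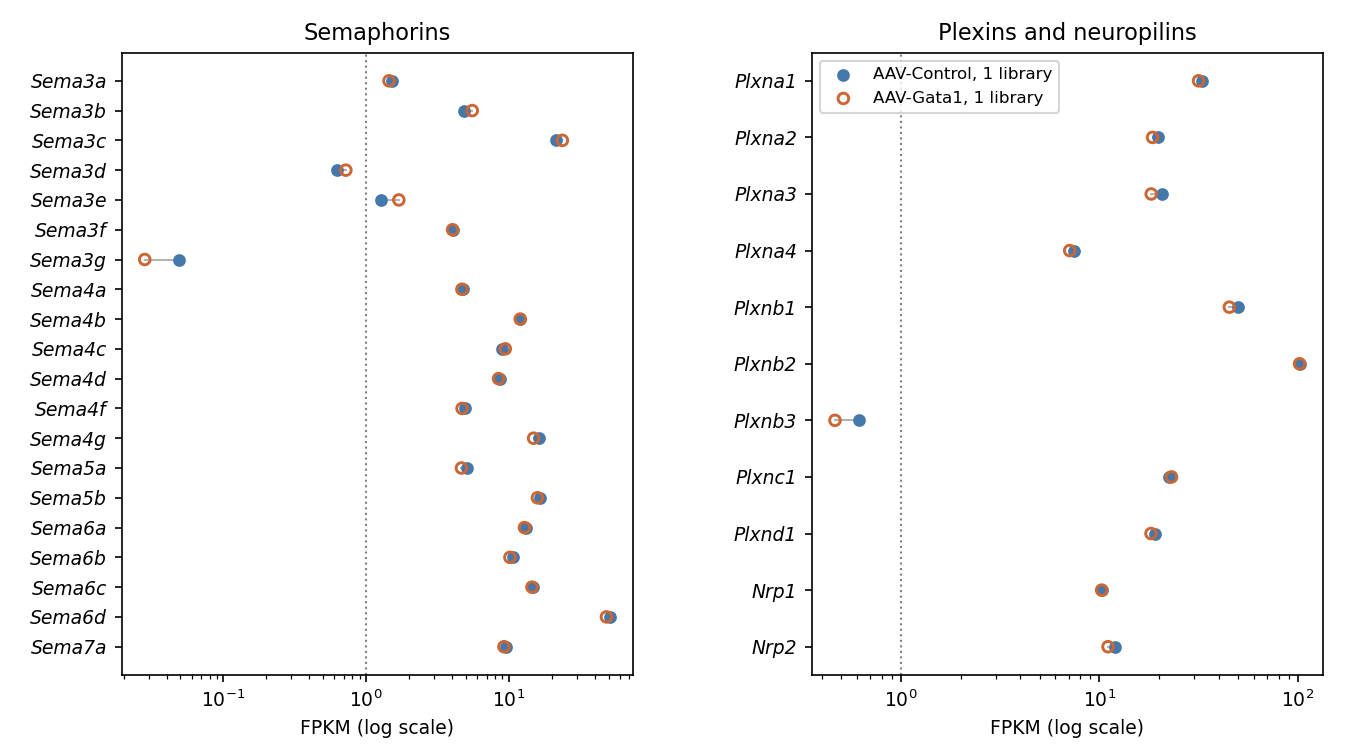
FPKM on a log axis is shown for 20 semaphorins (left) and for 9 plexins and 2 neuropilins (right), with a filled point for the AAV-Control library and an open point for the AAV-Gata1 library, 1 library each. The dotted line marks 1 FPKM. Sema3e, Sema3b and Sema3c sit to the right of their control points, and all 4 A plexins to the left.

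Plexins, the signalling receptors, were lower in 7 of the 8 compared (87.5%), beside 54.7% of all genes compared. Their median was −0.069, beside −0.013 over all genes. The summed level of all 9 plexins was 274.8 FPKM with the control virus and 264.4 FPKM with Gata1, 3.78% lower. Without Plxnb2, the most abundant, the ratio of the sums was 0.941. Plexin A genes, the partners of neuropilins and of class 6 semaphorins, were all lower. Plxna3 had the lowest ratio of the 8 plexins compared, at 20.6 FPKM with the control virus and 18.3 FPKM with Gata1 (log2 ratio −0.17). Plxna2 stood at 19.8 and 18.5 FPKM, Plxna1 at 32.8 and 31.6 FPKM, and Plxna4 at 7.49 and 7.09 FPKM. The 4 together were 6.48% lower, from 80.7 to 75.5 FPKM.

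Plxnb1, the receptor of Sema4d, stood at 49.7 and 45.2 FPKM (log2 ratio −0.14). Plxnb2, which acts in neural progenitors and migrating neurons and is also made by other cell types, read 102.21 and 101.99 FPKM, a difference of 0.218%, and supplied 37.2% of all plexin FPKM in the control. Plxnb3, known from oligodendrocytes, stood under the minimum at 0.614 and 0.466 FPKM. Plxnd1, the receptor of Sema3e, stood at 19.1 and 18.2 FPKM. Plxnc1 was the 1 higher plexin, at 22.4 and 23.1 FPKM. Of 13 markers of the oligodendrocyte lineage compared, 10 (76.9%) were lower, beside 54.7% of all genes compared. The other 3 were higher, among them Cnp (59.39 and 60.25 FPKM) and Mbp (37.8 and 38.5 FPKM). The 15 listed summed to 333.8 FPKM with the control virus and 315.5 FPKM with Gata1, none of them at 0. The part of these cells in the plexin values was not tested.

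The 2 neuropilins are coreceptors of class 3 semaphorins. Nrp1 read 10.272 FPKM with the control virus and 10.270 FPKM with Gata1. Nrp2 read 11.9 and 11.1 FPKM (log2 ratio −0.10). The sign of the small differences of Nrp1, Plxnb2, Sema4b, Sema3f and Epha3 changed with centring, and each was under 1% of the control level.

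Known semaphorins and their plexin or neuropilin receptors were placed beside each other in 14 pairs from textbook knowledge. Ephrins with Eph receptors, and Sema3b and Sema3c with neuropilins, were not among the pairs, and some genes stood in several. Among these 14, the receptor stood at the higher level in 11 pairs and the ligand in 3, the same in both libraries. That split depends on which pairs were chosen. Plxnd1 exceeded Sema3e by a ratio of 15.1 with the control virus and 10.7 with Gata1, the pair whose ratio differed most. Sema3e stood at only 1.27 and 1.69 FPKM, near the minimum of 1 FPKM, where the precision is unknown. Plxnb2 exceeded Sema4c by 11.4 and 10.8, and Nrp1 exceeded Sema3a by 6.75 and 7.10. The ligand was the more abundant for Sema6a and Sema6b against Plxna4 and for Sema6d against Plxna1, where the receptor stood at 0.646 and 0.655 of the ligand level.

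Eph receptors were mixed. Of the 10 compared, 6 were lower and 4 higher, at a median of −0.025. The share lower, 60%, was near the 54.7% of all genes compared. The summed level of all 14 was 129.1 FPKM with the control virus and 127.8 FPKM with Gata1, 1.04% lower. Epha5, a receptor that guides topographic mapping, stood at 43.7 and 42.4 FPKM and made up 33.8% of all Eph receptor FPKM in the control. Epha4, which binds ephrins of both classes, stood at 21.9 and 22.6 FPKM. Epha7 was higher, at 8.56 and 9.58 FPKM (log2 ratio 0.15). Epha3 stood at 5.21 and 5.17 FPKM. Epha8 had the lowest log2 ratio of the 46 members compared, −0.19, at 1.38 and 1.09 FPKM. At that level, 10.5% of genes with a mean from 1 to 2 FPKM were at least 1.2-fold lower. Of the other EphA genes, Epha10 (0.928 and 0.957 FPKM), Epha2 (0.922 and 0.845 FPKM) and Epha6 (0.831 and 0.662 FPKM) were under the minimum, and Epha1 was listed at 0 in both libraries.

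The EphB genes split by member. Ephb1, Ephb2 and Ephb3, kinases that act in the making of dendritic spines and excitatory synapses, were each lower. Ephb1 stood at 13.3 FPKM with the control virus and 12.3 FPKM with Gata1, Ephb2 at 10.4 and 9.36 FPKM, and Ephb3 at 7.31 and 6.63 FPKM, with log2 ratios of −0.10, −0.14 and −0.12. Ephb4, known from vessels, stood at 6.01 and 6.18 FPKM. Ephb6, which lacks kinase activity, was higher, at 8.67 and 9.98 FPKM (log2 ratio 0.18). Of all genes compared, 920 had a higher log2 ratio than Ephb6 and 1805 a lower one than Ephb2.

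**Figure D3:**
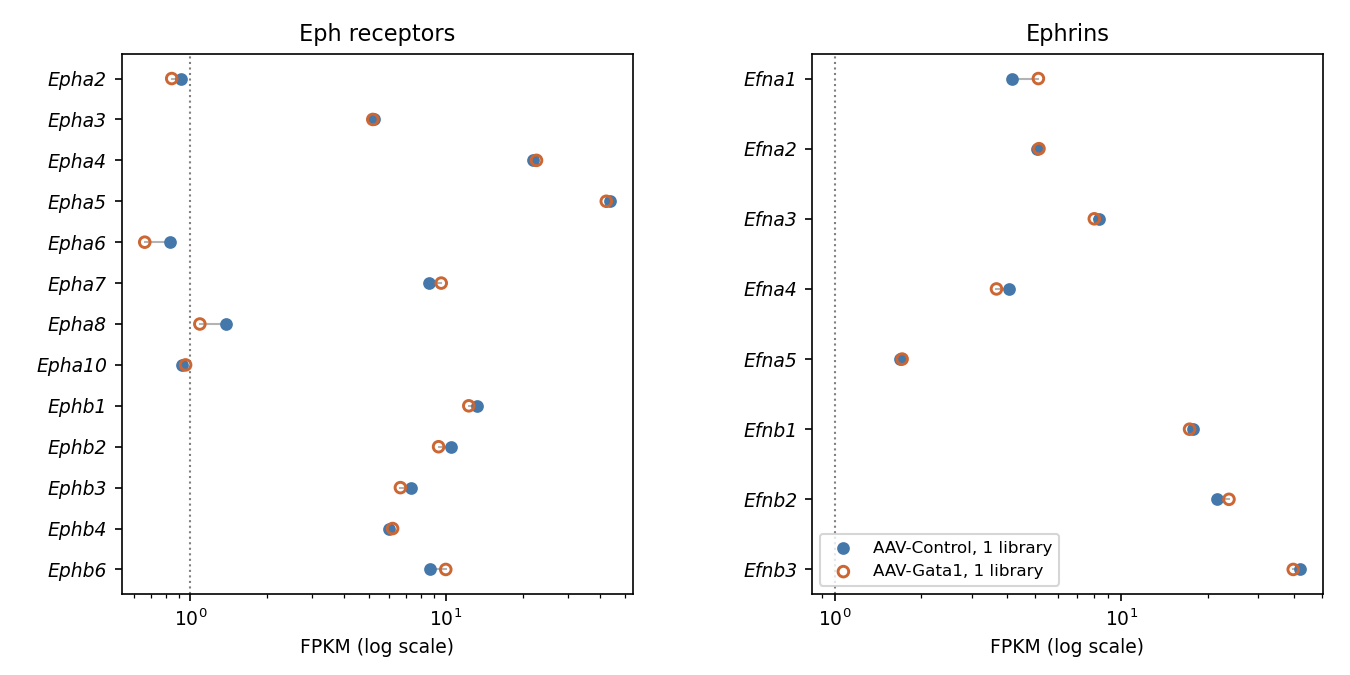
FPKM on a log axis is shown for 13 Eph receptors (left; Epha1, at 0 in both libraries, cannot be drawn) and 8 ephrins (right), with a filled point for the AAV-Control library and an open point for the AAV-Gata1 library, 1 library each. The dotted line marks 1 FPKM. Efna1, Efnb2, Epha7 and Ephb6 sit to the right of their control points, and Ephb1, Ephb2 and Ephb3 to the left.

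Ephrins balanced out. Of 8, 4 were higher and 4 lower, where 54.7% of all genes compared were lower. The summed level of the ephrins read 104.6 FPKM with the control virus and 104.5 FPKM with Gata1. Efna1 had the highest log2 ratio of the 46 members compared, 0.25, at 4.14 FPKM with the control virus and 5.13 FPKM with Gata1. Of all genes compared, 489 had a higher ratio, and 6.14% of genes with a mean from 2 to 5 FPKM were at least 1.2-fold higher. With centring its log2 ratio was 0.266, which passes 1.2-fold. Efna4 was lower, at 4.04 and 3.66 FPKM. Efna2 (5.07 and 5.15 FPKM), Efna3 (8.38 and 8.04 FPKM) and Efna5 (1.69 and 1.72 FPKM), the last a repellent ligand in retinal and cortical mapping, differed by less than 5% of the control.

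The ephrin-B genes were the abundant ephrins, with 81.2 FPKM in the control against 23.3 FPKM for the A class. Efnb3, a ligand at the midline of the spinal cord, stood at 41.9 and 39.8 FPKM. Efnb1 stood at 17.8 and 17.3 FPKM. Efnb2, known from arteries and from neural cells, was higher, at 21.6 and 23.7 FPKM (log2 ratio 0.13). Endothelial markers summed to 11.8 FPKM with the control virus and 12.2 FPKM with Gata1, with 3 of 10 at a mean of 1 FPKM or more. Of these 3, Slco1a4 (log2 ratio −0.13) and Kdr (−0.11) were lower and Egfl7 (0.15) higher. The part of endothelial cells in the Efnb2 value was not tested.

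**Figure D4:**
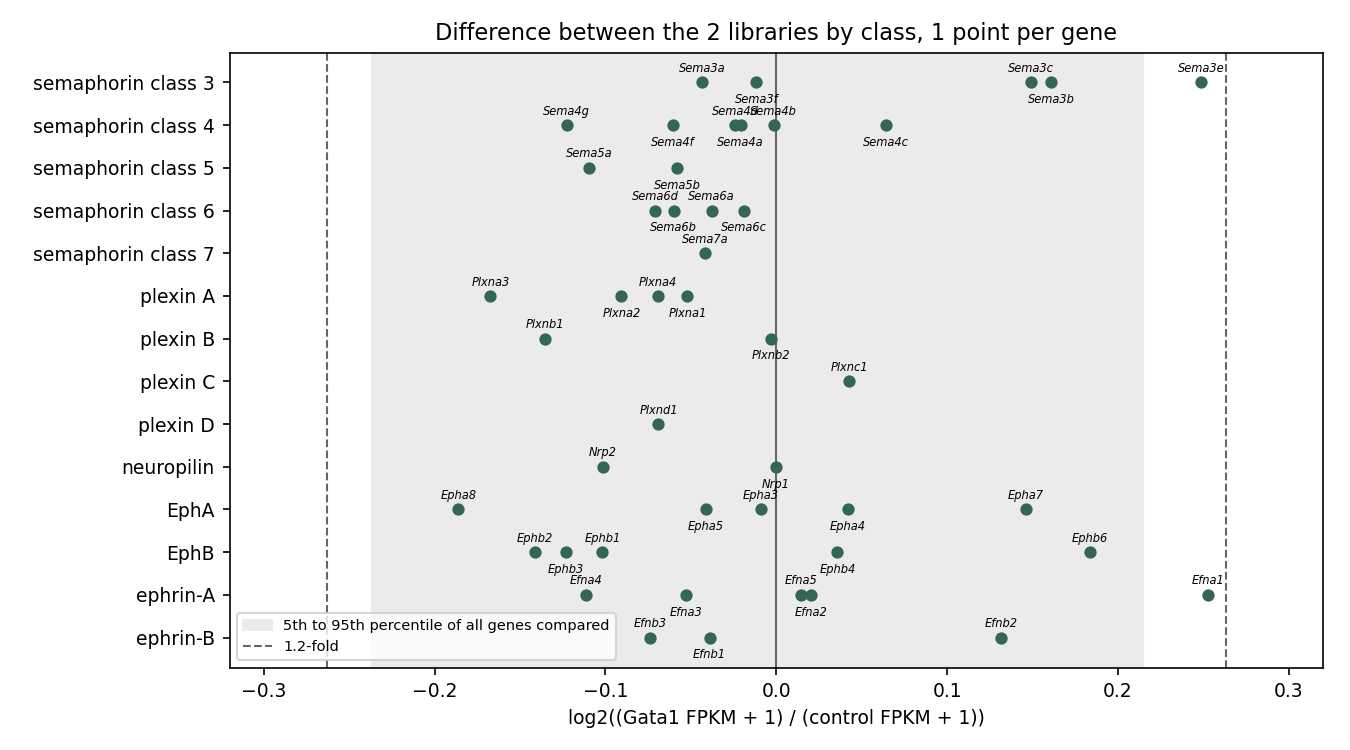
Each point is 1 of the 46 members compared, placed by its log2 ratio of Gata1 to control (FPKM plus 1) in the row of its class, with grey for the 5th to 95th percentile of all genes compared and dashed lines at 1.2-fold. All A plexins and all class 5, 6 and 7 semaphorins lie left of 0, and Efna1 and Sema3e lie furthest right, inside the dashed line.

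Some members are neighbours in the genome. On chromosome 3, Efna1, Efna3 and Efna4 follow each other with 0 protein-coding genes between them in the RefSeq annotation of GRCm38.p6, and their log2 ratios were 0.25, −0.053 and −0.11. On chromosome 5, Sema3a and Sema3e, at −0.044 and 0.25, are 3 protein-coding genes apart. On chromosome 9, Sema3b and Sema3f, at 0.16 and −0.012, are also 3 apart. On chromosome 4, Ephb2 and Epha8, both among the lowest members, flank the complement genes C1qa, C1qb and C1qc, which are microglia markers. C1qa stood at 92.3 and 109.1 FPKM and C1qb at 50.5 and 60.7 FPKM, higher in the Gata1 library while both flanking Eph genes were lower. All 15 microglia markers compared were higher, beside 45.3% of all genes compared. The summed level of the 17 listed was 753.7 FPKM with the control virus and 889.2 FPKM with Gata1. None was at 0, and Tmem119 and P2ry12 were under 1 FPKM. Progenitor markers, 5 of 10 higher and 5 lower, summed to 1591 FPKM with the control virus and 1684 FPKM with Gata1. The part of microglia or of progenitors in the higher values of Efna1, Sema3b, Sema3c, Ephb6 or other members was not tested.

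Promoter sequence was examined because the delivered protein binds DNA at GATA words. RefSeq windows of GRCm38.p6, from 250 bases before to 50 after an annotated start, were found for 47 of the 56 members (61 windows). The words searched, on both strands, were AGATAA and its form with a final G (AGATAG), and the forms of both with an initial T (TGATAA for the first and TGATAG for the second). A word was present in 8 of 61 windows (13.1%), in 8 genes, against 29.8% of all 32851 windows and 17.9% of the 12737 windows of genes compared. Member windows were rich in G and C, at a median of 64% against 52.7% over all windows. Among windows with G and C content between the quartiles of the members, the share was 12.9% both for the members (4 of 31) and for the other genes compared (650 of 5038). A match is a description of letters, not evidence of binding. The bases before the start are shown for a lower and a higher neighbour on chromosome 3, Efna4 and Efna1, for Plxna2, an A plexin with a word close to its start, and for Sema3e, the member with the highest FPKM ratio. Capitals mark a GATA word.
Efna4, chr3:89338029-89338278, minus strand: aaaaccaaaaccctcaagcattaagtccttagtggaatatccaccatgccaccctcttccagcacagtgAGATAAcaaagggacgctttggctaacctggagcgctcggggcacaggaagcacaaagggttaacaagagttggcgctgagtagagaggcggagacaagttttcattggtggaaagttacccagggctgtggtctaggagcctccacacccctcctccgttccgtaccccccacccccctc
Efna1, chr3:89280952-89281201, minus strand: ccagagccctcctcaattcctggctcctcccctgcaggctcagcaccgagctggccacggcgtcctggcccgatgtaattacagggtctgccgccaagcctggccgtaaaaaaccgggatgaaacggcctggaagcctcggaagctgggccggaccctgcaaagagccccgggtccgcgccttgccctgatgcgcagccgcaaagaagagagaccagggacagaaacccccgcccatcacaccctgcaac
Plxna2, chr1:194619579-194619828, plus strand: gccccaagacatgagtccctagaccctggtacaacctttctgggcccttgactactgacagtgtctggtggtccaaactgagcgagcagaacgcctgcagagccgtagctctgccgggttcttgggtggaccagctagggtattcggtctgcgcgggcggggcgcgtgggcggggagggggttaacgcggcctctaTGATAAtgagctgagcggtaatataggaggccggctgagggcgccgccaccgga
Sema3e, chr5:14025026-14025275, plus strand: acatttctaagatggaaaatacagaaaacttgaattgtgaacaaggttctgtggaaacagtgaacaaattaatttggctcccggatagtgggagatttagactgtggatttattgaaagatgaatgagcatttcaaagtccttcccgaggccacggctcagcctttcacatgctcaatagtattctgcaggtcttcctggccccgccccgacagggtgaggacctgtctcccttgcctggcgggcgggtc

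Efna4, lower in the Gata1 library, had its word starting 181 bases before the start, and Plxna2, also lower, had one 54 bases before it. No window of the highest members Efna1, Sema3e and Ephb6 held a word, and no window of the lowest members Epha8, Plxna3 and Ephb2 held one either. The other genes with a word in a window were Sema6d, Sema3a, Sema4d, Epha3, Epha6 and Plxnb3, of which the first 4 were lower by 5% or less and the last 2 were under the minimum level. Being lower was common, at 71.7% of the 46 members compared and 54.7% of all genes compared. A link between a word and the level of a gene was not tested.

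Other guidance genes gave the setting for these values. Of 19 genes of netrin signalling compared, 15 were lower, at a median of −0.071, and 1 was 1.2-fold lower, Ntn1, the gene of the diffusible cue netrin-1 (4.80 and 3.72 FPKM). Of 11 genes of slit and robo signalling, 10 were lower, at a median of −0.091, among them Srgap3 (48.7 and 44.4 FPKM). Of 40 semaphorin coreceptors and effectors, 24 were lower, at a median of −0.011, which turned to 0.0021 with centring. Cfl1, the actin-severing protein cofilin, stood at 953.2 and 937.2 FPKM and Rac1 at 240.8 and 256.1 FPKM. Of 37 Eph and ephrin effectors, 20 were lower, at a median of −0.026, with the Src family kinase gene Fyn at 84.9 and 82.5 FPKM. No gene of these 4 lists was 1.2-fold higher. Of all genes compared, 54.7% were lower by any amount, 3.29% were 1.2-fold higher and 3.98% were 1.2-fold lower. The semaphorin and the Eph and ephrin effector lists, with 60% and 54.05% lower, stood near the first of these shares.

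**Figure D5:**
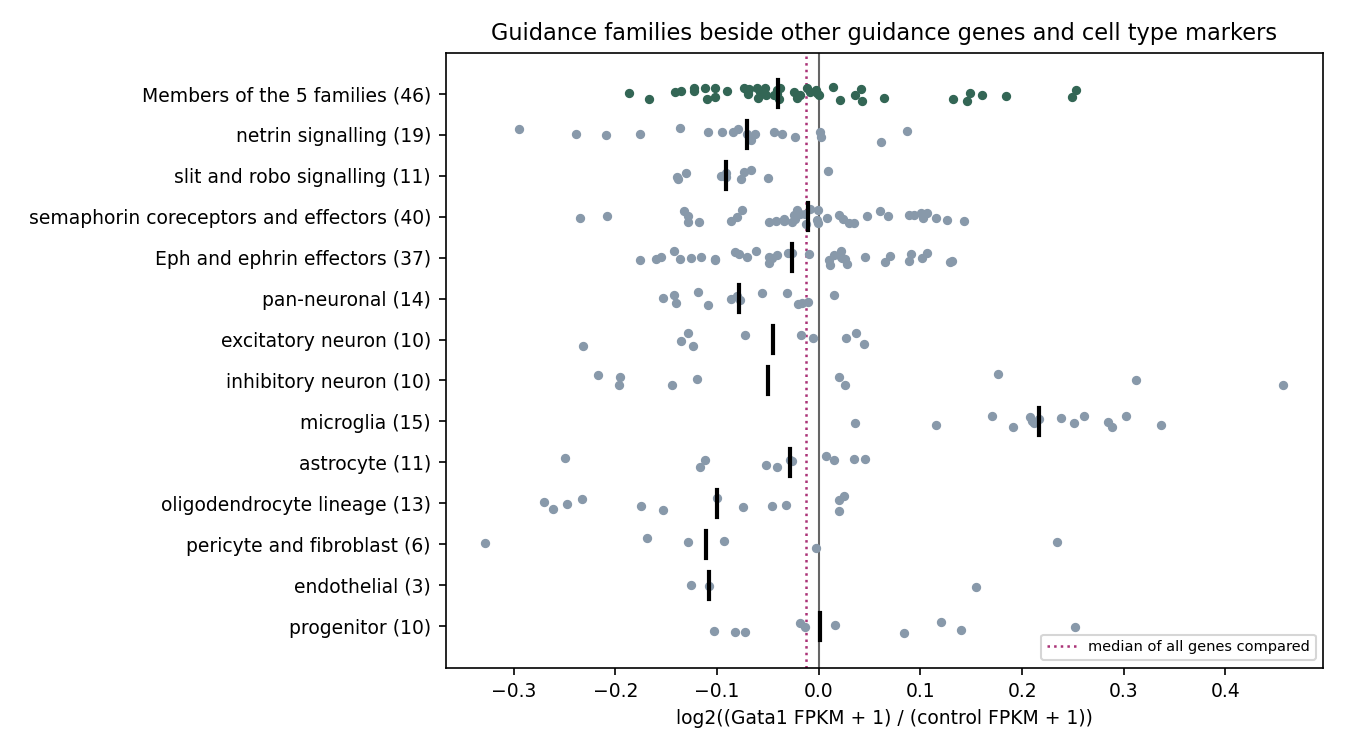
The log2 ratio of Gata1 to control (FPKM plus 1) is shown for the 46 members compared and for the genes of each other list, 1 point per gene with the number of genes in brackets, a black bar at each median and a dotted line at the median of all genes. The medians run from −0.11 in pericyte and fibroblast markers to 0.22 in microglia markers, with the members at −0.040.

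The 3 antisense genes at Plxna4 were low. Plxna4os3 was listed at 0.939 and 0.524 FPKM, Plxna4os1 at 0.154 and 0.163 FPKM, and Plxna4os2 at 0 in both libraries. The sources used here do not say whether counting used strand, so reads of Plxna4 and of these genes may not be told apart. Of the 54 members in the RefSeq table, 26 overlap another annotated gene, among them Sema3b (with Lsmem2), Plxna3 and Ephb2. Overlap was taken over whole genes from start to end, without regard to strand or exons. Whether any reads were shared was not tested.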

How the data were processed

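Of the 10 samples, 4 have processed values here, and the 2 mRNA libraries were used, 1 per group. The histone modification and input samples and the small RNA libraries were not analysed here. The authors deposited FPKM per gene, per the file headers. The headers carry library names that do not state the virus, so each library's group was taken from the sample labels. The submitters' processing notes list Cufflinks 2.1.1, Cuffdiff 2.1.1 and TopHat2 2.1.1 with other tools, and the builds mm9 and mm10, without saying which was used for mRNA. Libraries were made from polyadenylated RNA with a stranded kit, per the labels' protocols. Strand setting, annotation and any further scaling between libraries are not given in the sources used here.

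Of 40993 rows, 6 had no symbol (0.0122% and 0.0113% of summed FPKM) and were left out. Each symbol kept its row of highest mean, and 13740 genes had a mean of at least 1 FPKM. A pseudocount of 1 was added before taking log2. Low values were searched for whole-fragment steps: of 1283 genes under 0.1 FPKM, no more than 43 shared a log2 ratio within 0.02, so no depth was recovered and no counting interval is given. With 1 library per group no test was possible. Counts past 2-fold and 1.2-fold are rules of size, set beside the share of all genes. The members and lists were chosen with earlier results of these data known. Every member with a mean of at least 1 FPKM is named with its values. Of the pathway lists the rule takes genes at least 1.2-fold apart and up to 4 of the most abundant, and of the marker lists up to 4 of the most abundant and those at 0. C1qb, Tmem119 and P2ry12 were named outside it, with their values known. Alternatives were other pseudocounts, filters, row rules, scalings and a background of named genes. Python 3.11.15, pandas 2.3.3 and numpy 2.4.6 were used.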

Additional observations from a re-analysis of the deposited data

How the results depend on the processing

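No paired analysis was possible because each group had 1 library, and for the same reason no replicate could be left out. With no replicate spread, a value is said to move when it differs by over 1.5 times. For a ratio of summed FPKM, its distance from 1 was compared in this way. No setting gave a member 2-fold apart. With a pseudocount of 0.1 or of 0.01, 2 members were 1.2-fold higher (Sema3e and Efna1) and 1 was 1.2-fold lower (Epha8), where 4.94% and 5.11% of all genes were higher and 5.90% and 6.22% lower. Centring on the median of all genes gave 1 higher member (Efna1), where 3.65% of all genes were higher. No filter on low values gave 1 lower member (Plxna4os3), where 4.87% of all genes were lower. With centring the medians were −0.018 for semaphorins, −0.013 for Eph receptors and −0.013 for Eph and ephrin effectors, and those of ephrins (0.00037) and of semaphorin coreceptors and effectors (0.0021) changed sign. A minimum mean of 5 FPKM gave −0.0090 for Eph receptors and −0.039 for ephrins, and no filter gave −0.041 for Eph receptors. Upper quartile scaling gave ratios of summed FPKM of 0.9995 (Eph receptors), 1.009 (ephrins, a change of sign) and 0.996 (semaphorins). Without the most abundant member they were 0.999 (Eph receptors), 1.033 (ephrins, a change of sign), 0.9999 (neuropilins), 0.941 (plexins) and 0.997 (semaphorins). The median of plexins and neuropilins stayed between −0.076 and −0.056, and that of all members between −0.042 and −0.028, over the settings tried. At 1.1-fold, 5 members were lower with a pseudocount of 0.1, and 6 with one of 0.01 or with no filter. Taking named genes as background lowered the share 2-fold apart to 0.041% in each direction. Summing the rows of a symbol or taking named genes as background moved none of the counts, medians and sums of the members and lists by over 1.5 times. Cause was not tested for any of these moves beyond the construction of each setting. Unknown depth leaves the precision of members near 1 FPKM unknown.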
